A study of Mus musculus with 6 samples.

Results

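The genes Il1a and Il1b encode interleukin-1 alpha and interleukin-1 beta, pro-inflammatory cytokines that lie next to each other on mouse chromosome 2. Their accessible chromatin was read from the DNase I hotspots of 6 libraries that overlap chromosome 2 at 129080000 to 129260000 (mm9), a window of 180 kb. The deposited lists held 27 such regions once the hotspots of all libraries were merged, of 59069 merged regions in the genome. The gene pair was chosen with results of these data known: it was selected on which libraries listed hotspots there and on their z-scores. All values below are therefore descriptions, with no p-value. With 2 libraries against 2, an exact two-sided permutation test could not go below 0.333.

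The cells were primary macrophages grown from the bone marrow of C57BL/6J mice, and all of them received lipopolysaccharide (LPS), a molecule of the outer membrane of Gram-negative bacteria that macrophages sense through Toll-like receptor signalling. The LPS alone group (2 libraries) was treated with LPS for 8 h. The Dex before LPS group (2 libraries) was given Dex, the glucocorticoid of the study, ahead of the 8 h of LPS, and the Dex late group (2 libraries) was given Dex late within an 8 h LPS treatment. The labels give no dose, no interval between the treatments and no word on whether the replicates came from separate mice. Untreated cells were not analysed here. The hotspot lists carry no gene names, and the labelled cell type was not checked against macrophage markers.

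Macrophages transcribe Il1b strongly when Toll-like receptors activate NF-kB and AP-1 factors on chromatin prepared by the lineage factors PU.1 and C/EBP-beta. The protein is made as an inactive precursor that caspase-1 cleaves in the inflammasome, whereas the interleukin-1 alpha precursor is already active. Glucocorticoids act through the glucocorticoid receptor, a DNA-binding factor, and are known to restrain cytokine genes. DNase I cuts where nucleosomes are displaced, at promoters and enhancers, and more diffusely along the bodies of some highly transcribed genes.

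Gene positions in mm9 were known to the nearest 1 kb only. Il1a lies at about 129.125 to 129.136 Mb and Il1b at about 129.19 to 129.197 Mb, both on the minus strand, so their starts are at the higher coordinate. In the order of genes that RefSeq gives for another build, GRCm38.p6, Ckap2l and Gm14023 stand next to Il1a on the downstream side, Gm25703 and Gm18333 lie between Il1a and Il1b, and the antisense transcript Il1bos follows Il1b. DNase-seq carries no strand, so a hotspot over the Il1b start cannot be assigned to Il1b or to Il1bos.

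The promoters are shown because each gene has a hotspot region over its start whose listing or rank differed between LPS alone and Dex. The sequences are from RefSeq (GRCm38.p6, minus strand), matched by symbol for both genes, and cover the 250 bases before each annotated start, at chr2:129309973-129310222 for Il1a and chr2:129371140-129371389 for Il1b. Those coordinates belong to GRCm38.p6 and not to the build of the hotspots. Capitals mark the TATAAA motif.
Il1a: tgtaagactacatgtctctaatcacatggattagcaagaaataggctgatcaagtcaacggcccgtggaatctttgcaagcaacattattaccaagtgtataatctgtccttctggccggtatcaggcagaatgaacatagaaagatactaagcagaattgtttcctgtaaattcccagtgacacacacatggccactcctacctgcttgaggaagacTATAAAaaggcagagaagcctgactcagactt
Il1b: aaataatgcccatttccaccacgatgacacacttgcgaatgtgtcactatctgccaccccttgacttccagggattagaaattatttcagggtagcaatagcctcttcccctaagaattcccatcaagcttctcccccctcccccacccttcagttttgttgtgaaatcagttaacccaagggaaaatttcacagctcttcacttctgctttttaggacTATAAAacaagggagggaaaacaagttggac

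Both promoters held 1 match to TATAAA, the core of the TATA box, whose first base lay 32 bases before the start of Il1a and 31 bases before that of Il1b. Searched on both strands, TATAAA occurred in 12.4% of 32851 RefSeq promoters of the same length. The AP-1 motif TGANTCA was found once in Il1a, 12 bases before the start, and not in Il1b, and 6.75% of all promoters held it. AGAACA, a short motif of the glucocorticoid receptor (16.1% of promoters) and the NF-kB consensus (7.25%) had no match in either window. The motifs do not overlap one another in these promoters, and a match or its absence says only which letters are present.

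Of the 27 regions, 10 were listed by all 6 libraries, which is 37.0%, beside 42.5% of all merged regions. Another 5 were listed in both LPS libraries and in none of the 4 Dex libraries, and are called LPS-only here. A further 3 were listed by a single library, each an LPS library, beside 17.4% of all merged regions, and 9 by 3 to 5 libraries. None of the 27 was seen in Dex libraries alone, where 7.35% of all merged regions were listed in at least 1 Dex library and neither LPS library. The LPS libraries listed 23 and 24 of the regions, the Dex before LPS libraries 13 and 18, and the Dex late libraries 11 and 18. The whole lists differ in the same direction, with 48084 and 51834 hotspots for LPS alone, 34646 and 44686 for Dex before LPS, and 29347 and 44447 for Dex late. The lowest z-score that a list holds was 7.98 and 8.35 with LPS alone, 9.34 and 9.16 with Dex before LPS, and 11.6 and 8.98 with Dex late. Each Dex list thus ended at a higher z-score than both LPS lists, so a hotspot missing there may be a signal below that limit. The part of this limit in the counts was not tested. Counts from lists of equal length are given below.

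**Figure D1:**
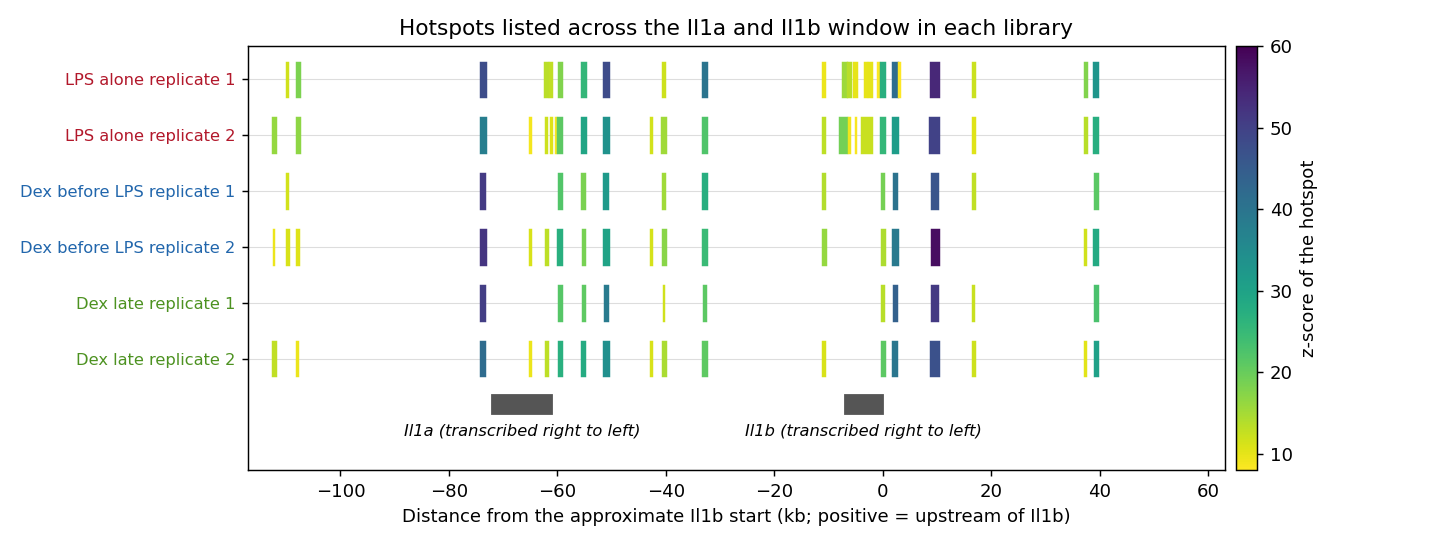
Hotspots of the window in each library, one row per library, against the distance from the approximate Il1b start in kb; colour gives the deposited z-score and grey bars the approximate gene spans. The LPS rows carry a string of hotspots over the Il1b body, most of them weak, that the 4 Dex rows lack. The strong regions upstream of Il1b appear in all 6 rows.

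The clearest difference lay along the body of Il1b. Hotspots covered 54.1% and 49.8% of the approximate 7 kb Il1b span in the LPS libraries, 5.06% and 4.40% in the Dex before LPS libraries, and 4.84% and 5.14% in the Dex late libraries. The mean share was 52.0 ± 3.01% with LPS alone, 4.73 ± 0.465% with Dex before LPS and 4.99 ± 0.212% with Dex late (SD, n = 2 each). The groups with and without Dex did not overlap in these full lists, which differ in length. The locus was selected on such listing, so this separation is a description. In all 4 Dex libraries, the only covered part of the span was its start.

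The LPS cover of the Il1b body came from 4 LPS-only regions in a row, and from a hotspot at 129195912 to 129196201 in replicate 1 alone, with a z-score of 8.24. The first, at 129188970 to 129190430, reaches beyond the approximate end of the gene and had z-scores of 15.5 and 19.1 and widths of 1002 and 1460 bp in the LPS libraries. The next began 8 bp further on, at 129190438 to 129191084, with z-scores of 13.6 and 9.23. The third, at 129191469 to 129192188, had 9.89 and 8.498, and the fourth, at 129192985 to 129195018, had 10.1 and 12.3. Within the fourth, replicate 2 listed 1 hotspot of 2033 bp and replicate 1 listed 2 hotspots of 590 and 586 bp. By z-score the first stood near the middle of its lists, at the percentiles 45.2 and 56.7. The others were weaker, at 1.64 to 37.9. Only the first exceeded, in both LPS libraries, the lowest z-score of every Dex list, which was highest in replicate 1 of Dex late, at 11.6. In both LPS libraries the fourth exceeded the lowest z-score of all other Dex lists. The second exceeded that of replicate 2 of each Dex group. Less accessible chromatin in every cell and fewer cells with open chromatin cannot be told apart in such bulk libraries.

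**Figure D2:**
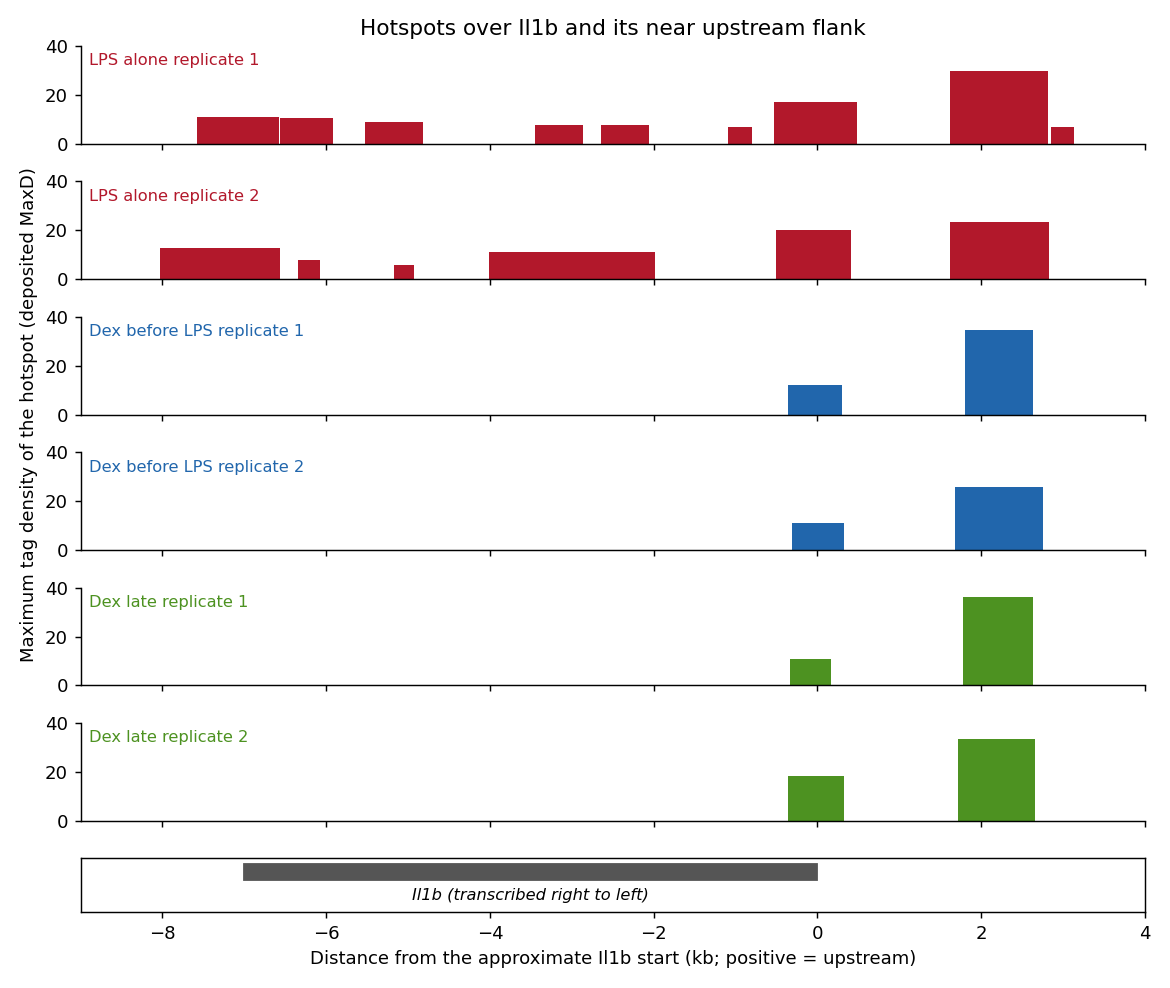
Hotspots over Il1b and its near flank, one panel per library, with the deposited maximum tag density as height and the distance from the approximate Il1b start in kb (positive is upstream). The low blocks between -8 and 0 kb are present in both LPS panels and absent from the 4 Dex panels, where the start region and the upstream region at about 2 kb remain.

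LPS-only regions made up 5 of the 20 regions of the window that both LPS libraries listed, where the share over the genome was 7.26%. For either Dex group alone the count was also 5 of 20, beside 11.9% of all regions listed in both LPS libraries for Dex before LPS and 12.9% for Dex late; these comparisons share the LPS libraries. In the opposite direction, 0 regions of the window were listed in both libraries of a Dex group and neither LPS library, beside 1.81% of the regions of the Dex before LPS group and 1.2% of those of the Dex late group. Regions that the 4 Dex libraries share but that both LPS libraries lack numbered 0 here too, beside 0.901% of the regions shared by the 4 Dex libraries over the genome. When the genome was cut into tiles as wide as the Il1b span, 3 of 38609 tiles with hotspots in both LPS libraries (0.00777%), the Il1b tile among them, had a gap of at least 3.13 kb between the lowest LPS cover and the highest Dex cover. With tiles shifted by 3.5 kb, which splits Il1b, the number was 0. Tile width and gap were taken from Il1b itself, so these counts describe its place among all tiles and test nothing.

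List length bears on this difference. With lists of equal length, the strongest 29347 hotspots of each library, the LPS libraries still covered 0.956 and 0.938 kb of the Il1b span and the Dex libraries between 0.308 and 0.360 kb. These lengths include the start region, whose hotspots were wider in the LPS libraries. The difference of the means from LPS alone was then -0.616 kb with Dex before LPS and -0.598 kb with Dex late, where the full lists gave -3.31 and -3.29 kb. Of the 4 LPS-only regions over Il1b, the one at 129188970 to 129190430 was still listed in both LPS libraries at equal length, and the other three were in no library. Of the 11 regions of the window that both LPS libraries then listed, 2 were LPS-only, beside 2.604% of such regions in the genome. These were the region at 129188970 and the one at 129088732 to 129089471, far from Il1b. Replicate 2 of each Dex group listed the latter in the full lists. From a common minimum z-score of 11.6 in every list, an alternative chosen after seeing the data, the LPS libraries covered 1.60 and 2.97 kb of the span and the Dex libraries the same 0.308 to 0.360 kb.

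The region over the Il1b start, at 129196471 to 129197484, was listed by all 6 libraries. Its maximum tag density was 17.1 and 20.1 with LPS alone, 11.9 and 11.01 with Dex before LPS, and 10.8 and 18.2 with Dex late. Its width was 1013 and 920 bp with LPS alone, 656 and 630 bp with Dex before LPS, and 501 and 689 bp with Dex late. Both Dex before LPS libraries lay below both LPS libraries in density and width, while replicate 2 of the Dex late group reached the LPS range in density. Counted in steps of the density scale, the maxima equal 51 and 58 steps with LPS alone, 29 and 29 with Dex before LPS, and 27 and 41 with Dex late. No source states what 1 step stands for.

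To compare libraries whose lists differ in length, each region was ranked by z-score among the 25091 regions that all 6 libraries listed, and its percentile is given, where 100 is the strongest. The Il1b start region stood at the percentiles 40.1 and 37.7 with LPS alone, 29.5 and 5.72 with Dex before LPS, and 9.29 and 29.5 with Dex late. The means were 38.9 ± 1.72, 17.6 ± 16.8 and 19.4 ± 14.3 (SD, n = 2 each), so the start region ranked lower in all 4 Dex libraries and the Dex groups overlapped each other. The spread between replicates within each Dex group was nearly as large as the distance to the LPS mean. Relative to the median maximum density of the shared regions of each library, its density was 0.984 ± 0.127 with LPS alone, 0.608 ± 0.0717 with Dex before LPS and 0.773 ± 0.225 with Dex late (SD, n = 2 each). Ranked by maximum density in place of the z-score, the Dex late and LPS libraries overlapped, since replicate 2 of the Dex late group stood at 45.4 and replicate 1 of the LPS group at 44.2.

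The nearest region upstream of Il1b differed in the other direction. This region, at 129198616 to 129199836 and about 1.6 to 2.8 kb upstream of the start, had maximum densities of 29.8 and 23.3 with LPS alone, 34.6 and 25.8 with Dex before LPS, and 36.0 and 33.7 with Dex late. It stood at the percentiles 63.0 and 52.1 with LPS alone, 66.6 and 63.5 with Dex before LPS, and 70.3 and 69.6 with Dex late. Both Dex groups thus ranked above both LPS libraries, and the Dex late libraries above the Dex before LPS libraries. Between LPS alone and Dex before LPS the density ranks overlapped, and in percentiles of each full list the differences reversed, to -1.16 for Dex before LPS and -0.102 for Dex late. The Il1b start and this flank region, about 1 kb apart, therefore differed in direction when ranked among shared regions.

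A weak hotspot beside it, at 129199858 to 129200137 and about 2.9 to 3.1 kb upstream, was listed by replicate 1 of the LPS group alone, at a z-score of 8.18.

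Further upstream, at about 8.6 to 10.4 kb from the Il1b start, the region at 129205597 to 129207400 was the strongest of the window by mean z-score. Its maximum densities were 38.1 and 41.0 with LPS alone, 30.9 and 37.6 with Dex before LPS, and 28.8 and 36.3 with Dex late. Its percentiles were 73.7 and 76.8 with LPS alone, 71.7 and 81.8 with Dex before LPS, and 75.3 and 77.9 with Dex late. By z-score rank the 3 groups overlapped at this region. By density all 4 Dex libraries were lower, but the percentiles by density overlapped too.

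At Il1a the libraries listed little over the gene itself. Hotspots covered 11.2% and 11.8% of the approximate 11 kb span with LPS alone, 0% and 8.35% with Dex before LPS, and 0% and 6.85% with Dex late. Replicate 1 of each Dex group listed nothing over the span. The region over the approximate start, at 129135442 to 129136085, was LPS-only, with z-scores of 12.9 and 10.5 and maximum densities of 10.0 and 8.68. It was in no library with lists of equal length. Just inside the gene, the region at 129134603 to 129135280 was listed in both LPS libraries at z-scores of 13.4 and 12.0 and in replicate 2 of each Dex group at 13.3 and 13.1, so at that site those Dex libraries matched the LPS libraries. Another region over the gene, at 129131746 to 129132145, was in the replicate 2 libraries of all groups, at z-scores of 8.90 with LPS alone, 11.1 with Dex before LPS and 9.47 with Dex late. Upstream of the start, a hotspot at 129136508 to 129136779 was listed by replicate 2 of the LPS group alone, at 8.62.

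**Figure D3:**
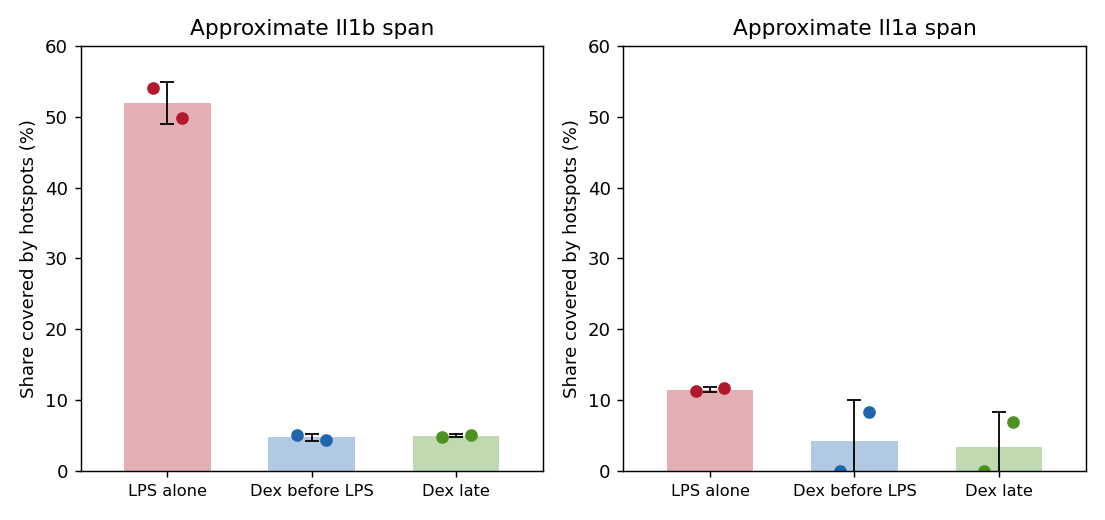
Share of the approximate Il1b and Il1a spans covered by hotspots, in percent; points are libraries, bars are means and whiskers the SD of 2 libraries. Both LPS libraries cover about as much of the Il1b span as each other and lie far above the 4 Dex libraries, while at Il1a the Dex groups each hold 1 library at 0%.

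The upstream flank of Il1a held regions of both directions. The nearest that all libraries listed, at 129136983 to 129137880 and about 1.0 to 1.9 kb from the start, had maximum densities of 13.7 and 13.9 with LPS alone, 17.3 and 16.7 with Dex before LPS, and 16.8 and 25.2 with Dex late. Its percentiles were 15.8 and 24.9, then 38.9 and 42.4, then 38.1 and 46.4 in the same order. All 4 Dex libraries were above both LPS libraries, by 20.3 percentile points on average with Dex before LPS and by 22.0 with Dex late, the largest higher differences of the window in either comparison. In percentiles of each full list the groups overlapped, at 51.7 and 61.4 with LPS alone, 54.2 and 67.0 with Dex before LPS, and 45.1 and 69.2 with Dex late. Among shared regions, the one nearest upstream of each gene thus ranked higher in both Dex groups, while the Il1b start region ranked lower.

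At about 5.3 to 6.2 kb upstream of Il1a, the region at 129141293 to 129142222 differed between the Dex groups. Its maximum densities were 21.4 and 25.0 with LPS alone, 14.4 and 14.8 with Dex before LPS, and 14.8 and 24.8 with Dex late. By percentile it stood at 36.7 and 48.1 with LPS alone, 28.7 and 17.6 with Dex before LPS, and 36.0 and 49.5 with Dex late. The Dex before LPS libraries were below all 4 others, with mean differences of -19.2 percentile points from LPS alone and -19.6 from Dex late. In percentiles of each full list the Dex groups overlapped, with a difference of -9.07. The deposited maximum density of replicate 2 of Dex before LPS equalled that of replicate 1 of Dex late. Ranked by maximum density within each library, Dex before LPS was lower than Dex late, at 38.4 and 32.1 against 40.4 and 64.7. By z-score rank the Dex late libraries spanned the LPS libraries, at 42.7 ± 9.48 against 42.4 ± 8.03 (SD, n = 2 each).

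The next region upstream of Il1a, at 129145392 to 129146528, had the same order in z-score rank. Its percentiles were 69.2 and 57.0 with LPS alone, 56.9 and 48.1 with Dex before LPS, and 65.4 and 61.4 with Dex late. The Dex before LPS libraries were lowest, but replicate 1 of that group lay only just below replicate 2 of the LPS group. Ranked by average density they were lowest too. Ranked by maximum density they overlapped Dex late, at 58.8 and 53.7 against 67.0 and 55.6. In percentiles of each full list the Dex groups also overlapped, at 68.2 and 70.4 against 70.1 and 78.0. At 129156167 to 129157038, a weak region about 20.2 to 21.0 kb upstream of Il1a, the order was different, with percentiles of 2.90 and 8.64 with LPS alone, 18.3 and 13.0 with Dex before LPS, and 0.588 and 8.78 with Dex late. There the Dex before LPS libraries were the highest, also when ranked by maximum density. In percentiles of each full list they overlapped LPS alone, at 36.2 and 45.4 against 30.3 and 44.9. Ranked by average density they overlapped LPS alone as well.

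The remaining regions that all libraries listed showed smaller or overlapping differences. Between the genes, the region at 129163674 to 129164619 had percentiles of 61.2 and 28.6 with LPS alone, 50.03 and 35.9 with Dex before LPS, and 36.3 and 28.5 with Dex late. Its z-score ranks overlapped between all groups. Its maximum densities were 25.1 and 16.3 with LPS alone, 16.9 and 15.9 with Dex before LPS, and 12.8 and 15.1 with Dex late. Ranked by density, both Dex late libraries lay below the other 4, with a mean difference of -19.9 percentile points from LPS alone. On the far side of Il1a, the region at 129122648 to 129123790 had percentiles of 69.1 and 63.9, then 74.9 and 77.6, then 75.1 and 72.4, and was higher in both Dex groups, although its full-list percentiles gave -1.69 for Dex late. Its relative maximum density hardly differed, at 1.80 ± 0.428, 1.96 ± 0.408 and 1.97 ± 0.434 (SD, n = 2 each). The region at 129235757 to 129236751, the outermost upstream of Il1b, overlapped between groups by z-score rank and was lower in all 4 Dex libraries by density, at 20.1 and 23.3 with LPS alone, 13.2 and 19.0 with Dex before LPS, and 14.8 and 19.9 with Dex late.

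**Figure D4:**
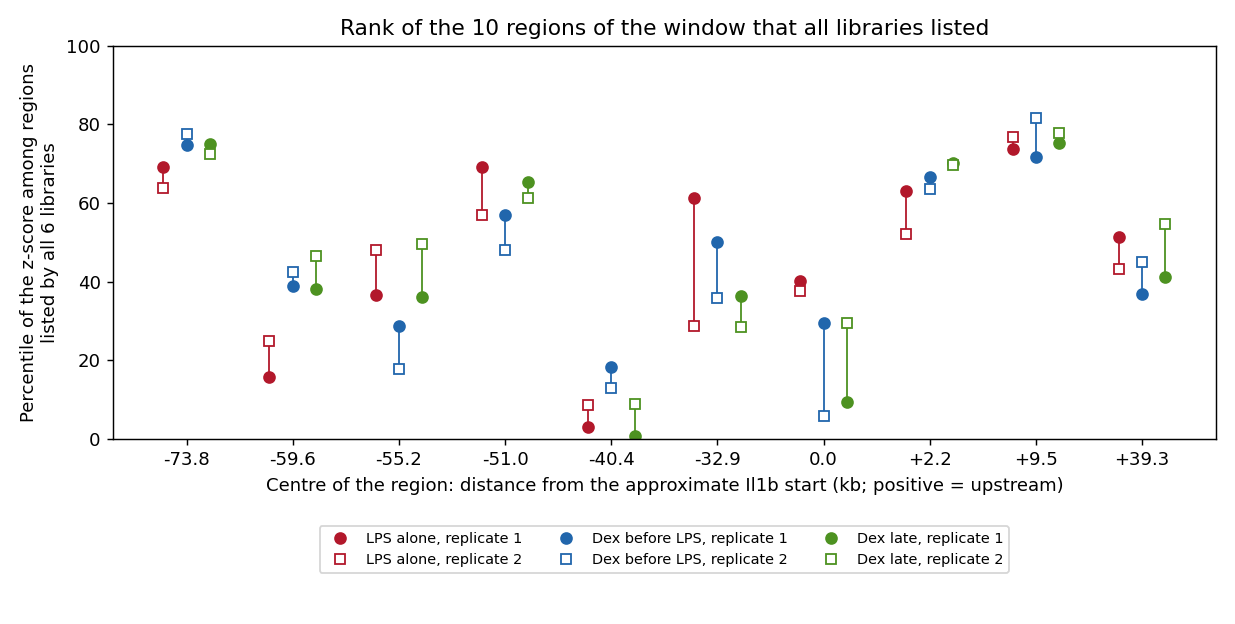
Percentile of the z-score among the regions that all 6 libraries listed, for the 10 such regions of the window in order of position; filled circles are replicate 1, open squares replicate 2, and lines join replicates. The region at the Il1b start (0.0 kb) is lower in all 4 Dex libraries, and the regions nearest upstream of Il1b and of Il1a are higher in both Dex groups.

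Counted over the 10 shared regions, both Dex before LPS libraries ranked below both LPS libraries at 3 and above them at 4, beside 19.3% and 19.3% of all shared regions. Both Dex late libraries ranked below both LPS libraries at 1 and above at 3, beside 18% and 17.2%. Between the Dex groups, the Dex before LPS libraries were below at 3 and above at 1, beside 14.5% and 14.7%. Ranked by maximum density, the counts were 4 and 2 with Dex before LPS (18.6% and 17.8% of all shared regions), 3 and 2 with Dex late (17.8% and 16.7%), and 2 and 2 between the Dex groups (13.6% and 13.3%). Ranked by average density they were 4 and 1 (18.7% and 18.3%), 3 and 2 (17.9% and 17.1%), and 3 and 3 (14% and 13.6%). In percentiles of each full list, which are moved by list length, the Dex before LPS libraries were lower than LPS alone at 5 and higher at 0, beside 42.3% and 4.23% of all shared regions. On that scale the Dex late libraries were lower at 3 and higher at 0 (47.7% and 1.72%), and Dex before LPS was lower than Dex late at 0 and higher at 1 (3.01% and 15.6%). With 10 regions these counts are too few to set the window apart from the genome. Both Dex before LPS hotspots were narrower than both LPS hotspots at 7 of 10 and both Dex late hotspots at 8 of 10, but 42.9% and 56.8% of all shared regions were narrower in this way, so narrower hotspots were common over the whole lists. None of the 10 was wider in either Dex group (5.06% and 1.96% of all shared regions). Between the Dex groups, 1 was wider with Dex before LPS (19.2%) and 0 were narrower (2.64%).

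The 9 regions listed by 3 to 5 libraries had z-scores of 8.90 to 18.3. Of these, 6 were absent from replicate 1 of both Dex groups, the shortest lists; 3 of the 6 were in the 3 replicate 2 libraries alone and the other three in both LPS libraries and replicate 2 of each Dex group. At one of the latter, 129088732 to 129089471, the z-scores were 18.3 and 16.9 with LPS alone against 10.5 with Dex before LPS and 9.62 with Dex late. At 129234047 to 129234659 they were 17.8 and 13.5 against 11.8 and 10.3. The region at 129086868 to 129087423 was the only one listed in both Dex before LPS libraries, at 11.6 and 11.2, and in neither Dex late library, beside 2.89% of all regions listed in both Dex before LPS libraries; replicate 1 of the LPS group listed it too, at 11.7. The reverse was 0 of the window, beside 0.768% of all regions listed in both Dex late libraries. At 129185739 to 129186466, about 3.5 to 4.3 kb past the end of Il1b, z-scores were 9.57 and 13.3 with LPS alone, 14.1 and 16.3 with Dex before LPS, and 11.1 in replicate 2 of the Dex late group. This region was thus not weaker with Dex before LPS. The LPS-only region at 129188970 to 129190430, which also reaches past the end of Il1b, was in no Dex library.

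Over the whole window, hotspots covered 18.4 and 19.9 kb with LPS alone, 9.85 and 12.9 kb with Dex before LPS, and 7.59 and 12.7 kb with Dex late. Set against the length that each list covers in the genome, this was 452 ± 2.97, 346 ± 6.16 and 337 ± 19.7 bp per Mb of hotspots (SD, n = 2 each). With lists of equal length it was 372 and 408 bp per Mb with LPS alone, 375 and 321 with Dex before LPS, and 323 and 307 with Dex late. The Dex before LPS and LPS libraries then overlapped. The outermost regions inside the window began at 129084443 and ended at 129236751, with z-scores of 9.43 to 16.2 and 21.4 to 33.0. The nearest regions outside lay 45.5 kb and 37.7 kb beyond its edges, at 11.7 in 1 library and at 9.08 and 9.59 in 2 libraries, so no region sits at a boundary of the rule.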

How the data were processed

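DNase-seq was performed on 6 libraries of bone marrow-derived macrophages, 2 in each of 3 groups taken from the sample titles. Per the labels, isolated nuclei received DNase I and the libraries were sequenced single-end. The authors deposited 1 hotspot list per library. CASAVA and the mm9 build are named in the submitters' processing notes. For the aligner, hotspot caller and calling threshold, nothing is stated in what was used here. The deposited signal values are maximum and average tag densities, the deposited score is a z-score, and the deposited p-value was not used. Neither the scaling nor the background model is stated; maxima were whole multiples of a library step of 0.334 to 0.443 (within 0.1 of a step, 100% of hotspots). Total tag numbers are unknown, so no counting interval is given.

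Hotspots sharing at least 1 bp were merged over the 6 lists, and a library lists a region if 1 of its hotspots overlaps it; the highest value counts where several do. Groups were compared by listing, by covered length, and by percentile among regions listed by all libraries, calling a region lower or higher where both libraries of a group lie on one side of both of the other. Every region of the window is accounted for. Some are given with at least a z-score or its percentile for each library that lists them. These are the regions over or within 5 kb upstream of the genes, the strongest, and those listed in both libraries of one group and neither of another. They also include the 3 regions with the largest percentile differences per comparison. Members and rules were chosen with earlier results of these data known. Scripts used Python 3.11.15 and pandas 2.3.3 and were tested on simulated data.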

Additional observations from a re-analysis of the deposited data

How the results depend on the processing

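The hotspots along the Il1b body did not last in every alternative. With the stronger 50% of each list, replicate 1 of the LPS group kept only the start hotspot over the span, at 0.529 kb. Replicate 2 kept 0.938 kb, and the Dex libraries 0, 0, 0 and 0.360 kb. The longest LPS-only run over Il1b was then 0 regions. The common minimum z-score was chosen after seeing the data. The direction of the cover of the whole Il1b span, start region included, held in every alternative run. In kb, Dex before LPS minus LPS alone and Dex late minus LPS alone, its difference was -0.616 and -0.598 with lists of equal length, -0.734 and -0.554 with the stronger 50% of each list, -1.96 and -1.94 with a common minimum z-score, and -3.46 to -3.14 without each library in turn. For Il1a it was 0 and 0 with equal lengths and 0 and 0 with the stronger 50%, and -1.26 to -0.345 without each library. For the window it was -2.85 and -4.37 with equal lengths, -4.70 and -5.32 with the stronger 50%, -6.05 for Dex before LPS with the common minimum, and from -11.6 to -6.34 without each library (-9.35 to -6.34 with Dex before LPS and -11.6 to -6.47 with Dex late).

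Counts of regions moved with list length, with the cover required and with wider merging, which joins neighbouring regions and drops no hotspot. Regions listed in both LPS libraries and no Dex library (5) were 2 with equal lengths, 1 with the stronger 50%, 2 with the common minimum, 3 where hotspots had to cover 50% of the region and 2 with hotspots up to 500 bp apart merged. Against Dex before LPS alone (5) they were 2, 3, 2, 3 and 2 in the same order, and against Dex late alone (5) they were 2, 1, 3, 4 and 2. Over the genome the share with no Dex library, of regions listed in both LPS libraries, was 2.604%, 7.02%, 4.29%, 9.46% and 6.77% in that order, where the window had 11, 10, 14, 18 and 16 such regions. The shares against Dex before LPS were 5.53%, 11.4%, 7.90%, 15.1% and 11.1%, and those against Dex late were 4.86%, 12.1%, 7.84%, 16.7% and 12.2%. The counts with no Dex library were not all survivors of the 5. With equal lengths and the common minimum, only the region at 129188970 to 129190430 stayed in both LPS libraries, and with the stronger 50% none did. The region at 129088732 to 129089471, which replicate 2 of each Dex group held in full lists, joined the count in these alternatives. Regions in both Dex before LPS libraries were 1 with equal lengths against LPS (0 with full lists) and 0 with the stronger 50% against Dex late (1), and 4 regions were then listed by all libraries (10). Without each library, these counts ran from 5 to 7 for no Dex library, 5 to 8 against Dex before LPS, 5 to 9 against Dex late, 0 to 1 for Dex before LPS against LPS, 1 to 2 for Dex before LPS against Dex late, 0 to 1 for the reverse and 10 to 11 for all libraries. The count against Dex before LPS was 8 without replicate 2 of that group, and that against Dex late was 9 without replicate 2 of that group and 8 without replicate 2 of the LPS group.

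Of the shared regions, those lower and higher with Dex before LPS than with LPS alone (3 and 4) were 4 and 2 by maximum density, 4 and 1 by average density, and 5 and 0 by percentile in each full list. Those lower and higher with Dex late (1 and 3) were 3 and 2, 3 and 2, and 3 and 0. Those lower and higher with Dex before LPS than with Dex late (3 and 1) were 2 and 2, 3 and 3, and 0 and 1. Without each library they ran from 3 to 5 and 4 to 5, from 1 to 4 and 3 to 7, and from 3 to 5 and 1 to 3. With Dex before LPS against LPS alone, 5 were lower without replicate 2 of either group. With Dex late against LPS alone, 4 were lower without its replicate 2, 3 without replicate 2 of the LPS group and 2 without its replicate 1, which also gave 7 higher. Between the Dex groups, 5 were lower without replicate 2 of Dex before LPS or replicate 1 of Dex late, 3 were higher without either of these or replicate 1 of Dex before LPS, and 2 without replicate 2 of Dex late. By percentile in each full list 3 differences reversed, at 129198616 (-1.16 with Dex before LPS and -0.102 with Dex late) and at 129122648 (-1.69 with Dex late); the cause was not tested.

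With the replicate number as a block, each Dex library set against the library of its own number, the counts were 3 and 4, 2 and 4, and 4 and 2. For these counts, and for those without each library, the share over the genome was not computed. They therefore do not set the window apart from the genome. The labels do not say that the replicate numbers pair the libraries. Replicate 1 minus replicate 2 correlated across shared regions at 0.363, 0.354 and 0.415 between the groups, which share no library, and regions are not independent replicates.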

Other observations

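The 4 LPS-only regions over Il1b, from 129188970 to 129195018, followed each other with no region of another class between them and gaps of less than 1 kb. Of 3062 LPS-only regions in the genome, no other run of this kind was as long, and the next longest, 2 runs of 3, lay on chromosome 15 at 11833797 to 11836654 and on chromosome 16 at 34572447 to 34574785. With gaps of up to 2, 5 or 10 kb allowed it was still the only run of 4 or more, while with gaps of up to 0.5 kb it held 3 regions, as the only run of 3. The definition of a run was chosen after these values were seen. With lists of equal length the run was gone: 1 LPS-only region was left over Il1b, and the longest runs in the genome were 2 runs of 2 regions. With the common minimum z-score 1 was left as well, and with the stronger 50% of each list 0. The mean z-score in the LPS libraries was 12.3 over the Il1b run, 10.4 over the chromosome 15 run and 9.63 over the chromosome 16 run.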
